A study of Mus musculus with 10 samples.

Results

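Mitochondrial carriers of the Slc25 family move metabolites, nucleotides, cofactors and ions across the inner membrane of the mitochondrion. Liver RNA was compared for 44 of their genes, out of 19505 genes named on the arrays. The members were the probe sets whose gene symbol starts with Slc25a, except the ornithine carrier Slc25a15, the carnitine-acylcarnitine carrier Slc25a20 and pseudogenes. Each of the 44 genes had 1 probe set. The rule reads symbols only. The iso-α-acids mice were 5 male C57BL/6N mice, bought at 8 weeks of age, that ate AIN-93G diet with 0.5% (w/w) iso-α-acids, the bitter acids of hops in beer, for 1 week. The control mice were 5 males of the same strain and age, pair-fed plain AIN-93G diet. All 10 mice were injected i.p. with 200 mg/kg of acetaldehyde, and their livers were collected 5 h later, so no liver without acetaldehyde was compared. The mice were picked by their serum enzyme values as representative of their groups and were not a random draw. Each mouse had its own Clariom S Mouse Array, and the labels call the samples biological replicates.

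Carriers of this family are encoded in the nucleus, made in the cytosol and inserted into the inner membrane, and most of them exchange one solute for another. In the liver they link the mitochondrial matrix to the urea cycle, gluconeogenesis, fatty acid and sterol synthesis, heme synthesis and the glutathione pool. A few members lie elsewhere, such as Slc25a17 in the peroxisome and Slc25a46 in the outer mitochondrial membrane. Because whole liver was used, a change in the number of cells of one type and a change in the RNA per cell cannot be told apart.

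Values are log2 levels, quantile normalized and summarized per probe set by the authors with qFARMS, a factor analysis that pulls a probe set to 1 level where its probes share no signal. A probe set is called flat here when its SD over the 10 arrays was under 0.001, and varying otherwise. For flat genes, a change and its absence look the same. Of the 44 carriers, 18 varied (40.9%) and 26 were flat, whereas 11.0% of all 22206 probe sets varied. The limit was not close to any carrier: the smallest SD among the varying was 0.0395, for Slc25a23, and the largest among the flat was 1.05e-05. Each difference below is the iso-α-acids mice minus the control mice, with its standard error (SE) and the adjusted p (Benjamini-Hochberg over all 22206 probe sets, threshold 0.05, two-sided) from limma. The number of arrays limits the precision.

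**Figure D1:**
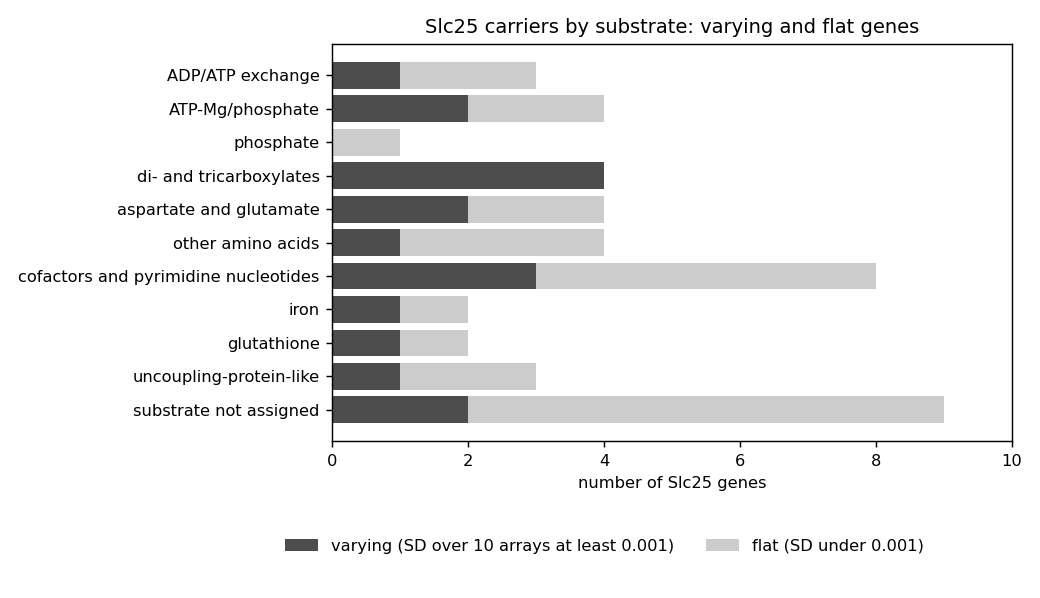
Number of Slc25 genes in each substrate group (horizontal axis), split into varying and flat genes. All 4 carriers of di- and tricarboxylates varied, while 7 of the 9 genes with no substrate assigned were flat.

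One iso-α-acids mouse stood apart from the other 4 of its group. Over all varying probe sets, the root mean square difference between replicate 1 of the iso-α-acids mice and each of the other 4 mice of its group was 0.625 to 0.646 on the log2 scale. It was 0.129 to 0.169 among those 4 and 0.175 to 0.365 among the control mice. Over the 18 varying carriers alone, it was 0.564 to 0.747 for replicate 1, 0.129 to 0.284 among the other 4 and 0.193 to 0.299 among the control mice. Results are therefore given with and without this mouse where it changes them. Hepatocyte markers Alb, Ttr, Apoa1 and Serpina1a were flat at high levels, and Cps1, an enzyme of the urea cycle, was at 12.05 to 12.55 in iso-α-acids mice and at 12.28 to 12.39 in control mice. No gene of the cell type marker lists passed limma's test with all mice. Without replicate 1, Cps1 was called lower (log2 difference -0.20, limma adjusted p = 0.0467), against -0.12 (limma adjusted p = 0.741) with all mice, and no other marker was called. Of 5 measured Kupffer cell markers, 4 varied, and the mean level of the list was 7.58 to 7.85 in iso-α-acids mice and 7.93 to 8.33 in control mice. The part of this shift in the carrier results was not tested.

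Slc25a37 rose in iso-α-acids livers, and the differences of the other varying carriers missed the threshold. The remaining 26 carriers were flat, so a change in them could not be seen. Over the whole table, 0.59% of probe sets were called higher and 0.171% lower, and among varying probe sets alone these shares were 5.13% and 1.07%. Slc25a37 is 1 of the 18 varying carriers (5.56%), a share near that background. At an unadjusted p under 0.05, 5 of the 18 were higher and none lower (27.8%), while 552 of all 2439 varying probe sets were higher and 357 lower (37.3%). Groups that did not overlap were found for 3 of the 18, Slc25a37, Slc25a39 and Slc25a10, all higher in iso-α-acids mice, while 12.1% of all varying probe sets were higher without overlap and 7.3% lower. The log2 differences of the 18 ran between -0.26 and 0.43 with a median of 0.05, against a median of 0.01 over all varying probe sets. The size of the difference had a median of 0.117 for the carriers and 0.131 for all varying probe sets.

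Iron enters mitochondria through the mitoferrins, where it is used for heme and iron-sulfur clusters. Mitoferrin 1 (Slc25a37), which is best known from developing red blood cells, was at 7.84, 7.79, 7.83, 7.83 and 7.67 in iso-α-acids mice and at 7.35, 7.46, 7.39, 7.45 and 7.41 in control mice. The lowest mouse on the iso-α-acids diet lay above the highest control mouse, and replicate 1 was the highest of all 10. The mean was 7.79 ± 0.069 in iso-α-acids mice and 7.41 ± 0.045 in control mice (SD, n = 5 each), a 1.30-fold difference (log2 difference 0.38, SE 0.0362, limma adjusted p = 0.00286). Leaving out any 1 mouse kept the call, with differences of 0.36 to 0.41 and limma adjusted p of 0.000600 to 0.0149. Of 22 alternatives, 20 kept the call and 2 lost it. These were rank products on varying probe sets alone and limma with the replicate number as a block (limma adjusted p = 0.0963). Mitoferrin 2 (Slc25a28), which serves most other tissues, was flat at 7.62. Of 3 erythroid markers listed, only Alas2 was measured here. This enzyme of heme synthesis in red cell precursors was at 7.45 to 9.41 in iso-α-acids mice and at 9.47 to 9.85 in control mice. It was lower without overlap, as were 7.3% of varying probe sets (log2 difference -0.68, SE 0.377, limma adjusted p = 0.639). Replicate 1 was at 7.45 and the other 4 iso-α-acids mice at 9.25 to 9.41, and without replicate 1 the difference was -0.30 (SE 0.0807, limma adjusted p = 0.152). The part of red cell precursors in the Slc25a37 result was not tested.

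Glutathione is made in the cytosol and must be carried into mitochondria, a step for which Slc25a39 is needed. Its log2 levels were 11.26, 11.32, 11.32, 11.42 and 11.43 in iso-α-acids mice and 11.18, 11.13, 11.08, 11.07 and 11.20 in control mice. Here too the groups did not overlap, although the gap between the lowest mouse on the iso-α-acids diet and the highest control mouse was small. The log2 difference was 0.22 (SE 0.0408), 1.16-fold, and missed the threshold (limma adjusted p = 0.0668). When replicate 1 on the iso-α-acids diet was left out it was 0.24 (limma adjusted p = 0.0261). That fit called 1.57% of probe sets higher and 0.662% lower. With array weights Slc25a39 passed too (limma adjusted p = 0.0366, with 0.811% of probe sets called higher and 0.252% lower). With any other 1 mouse left out the difference was 0.20 to 0.23 and missed the threshold (limma adjusted p of 0.0925 to 0.157). Slc25a40, the close relative of Slc25a39, was flat at 6.72.

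**Figure D2:**
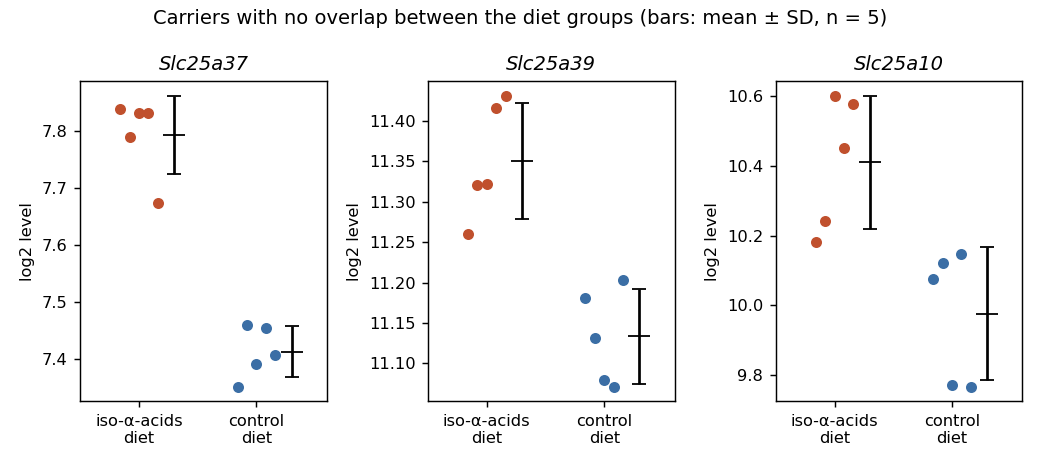
Log2 level (vertical axis, a separate scale for each gene) of Slc25a37, Slc25a39 and Slc25a10 in each iso-α-acids mouse (left) and control mouse (right); the bars are the mean and SD of 5 mice. The points of the groups do not overlap in any panel, and only Slc25a37 passed limma's test.

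Carriers of di- and tricarboxylates exchange citrate, malate, succinate and oxoglutarate between matrix and cytosol. All 4 measured carriers of this group varied, all 4 differences were positive and none passed limma's test. The dicarboxylate carrier Slc25a10, which exchanges malate or succinate for phosphate, was at 10.18, 10.24, 10.60, 10.45 and 10.58 in iso-α-acids mice and at 10.08, 10.12, 9.77, 10.15 and 9.77 in control mice. Every mouse on the iso-α-acids diet lay above every control mouse, with replicates 1 and 2 closest to the controls. It had the highest difference among the 18 varying carriers, 0.43 (SE 0.119, 1.35-fold), but its spread was wide in both groups (limma adjusted p = 0.211). When limma was run on varying probe sets alone, where 13.4% were called higher and 6.89% lower, Slc25a10 passed (adjusted p = 0.0280) together with Slc25a39 (adjusted p = 0.00790) and Slc25a37 (adjusted p = 0.000234).

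The upstream sequences of Slc25a10 and Slc25a39 are shown because these genes were higher without overlap and their start sites are in the RefSeq promoter table (GRCm38.p6), which held 34 of the 44 carriers. Slc25a37 has no entry. The 250 bases before the start site lie on chromosome 11 for both genes, at chr11:120491587-120491836 on the plus strand for Slc25a10 and at chr11:102407518-102407767 on the minus strand for Slc25a39. They run 5′ to 3′ on the strand of the gene, and capitals mark a motif match.
Slc25a10 promoter: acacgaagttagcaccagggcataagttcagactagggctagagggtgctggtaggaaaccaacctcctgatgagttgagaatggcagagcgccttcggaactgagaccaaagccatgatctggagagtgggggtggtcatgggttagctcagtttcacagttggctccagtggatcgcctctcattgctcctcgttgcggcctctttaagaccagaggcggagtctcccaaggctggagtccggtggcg
Slc25a39 promoter: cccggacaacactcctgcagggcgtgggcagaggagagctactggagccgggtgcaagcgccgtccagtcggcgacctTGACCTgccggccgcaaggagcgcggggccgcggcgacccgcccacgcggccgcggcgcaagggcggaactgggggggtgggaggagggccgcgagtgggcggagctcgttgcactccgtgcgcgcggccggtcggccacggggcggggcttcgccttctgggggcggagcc
Both strands were searched for the core of the antioxidant response element bound by Nrf2 (TGACNNNGC), for the nuclear receptor half-site AGGTCA and for a direct repeat of that half-site with 1 base between its copies, which contains the half-site. Slc25a39 held 1 half-site on the opposite strand, 172 to 167 bases before the start site, and neither gene held a match to the other motifs in this window. The 34 carriers hold 43 windows, since some genes have several start sites. The half-site was found in 4 of the 43 windows, in 4 genes, and in 4607 of all 32851 promoter windows. The antioxidant response element core was found in 9 of the 43 windows (20.9%), in 7 genes, and in 10.2% of all windows. Of these genes, 3 varied (Slc25a5, Slc25a23 and Slc25a25), out of 15 varying carriers with a window. None of the 3 passed limma's test with all mice, and the groups overlapped for each. The others, Slc25a3, Slc25a14, Slc25a33 and Slc25a38, were flat. No carrier held the direct repeat, which occurred in 0.0335% of windows. A match is a description of the letters only. The windows differed in base composition, with a median GC content of 57.2% over the carrier windows and 52.4% over all windows, and its part in these shares was not tested. The GC content was 56.0% for Slc25a10 and 77.2% for Slc25a39.

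The citrate carrier Slc25a1, which exports citrate for fatty acid and sterol synthesis, had a low value in a single mouse. It was at 10.46, 11.43, 11.35, 11.41 and 11.50 in iso-α-acids mice and at 11.05, 11.41, 11.14, 11.18 and 11.14 in control mice. Replicate 1 lay below all other mice, replicate 3 lay below the highest control mouse, and replicates 2, 4 and 5 lay above it. The log2 difference was 0.05 (SE 0.200, limma adjusted p = 0.974) with all mice and 0.24 (SE 0.0713, limma adjusted p = 0.193) without replicate 1. The oxoglutarate carrier Slc25a11, part of the malate-aspartate shuttle, and the oxodicarboxylate carrier Slc25a21, which acts in lysine and tryptophan breakdown, each had a log2 difference of 0.05 with overlapping groups (limma adjusted p = 0.901 for Slc25a11 and 0.925 for Slc25a21). Without replicate 1, the lowest of all mice for Slc25a11, the difference of Slc25a11 was 0.0941 (limma adjusted p = 0.594).

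Among the carriers of aspartate and glutamate, both varying genes had a positive difference. The glutamate carrier Slc25a22 was at 9.38, 9.77, 9.99, 9.96 and 9.96 in iso-α-acids mice and at 9.17, 9.47, 9.38, 9.58 and 9.52 in control mice. Replicates 2 to 5 lay above all control mice, as for 24.4% of varying probe sets, and replicate 1 lay among the control mice. The log2 difference of Slc25a22 was 0.39 (SE 0.132, limma adjusted p = 0.346) with all mice. It was 0.50 (SE 0.0901, limma adjusted p = 0.0395) without replicate 1, a fit that called 13% of varying probe sets higher and 4.26% lower. Citrin (Slc25a13), the aspartate-glutamate carrier of the liver that feeds the urea cycle, was at 9.56, 9.69, 9.87, 9.75 and 9.62 in iso-α-acids mice and at 9.70, 9.42, 9.44, 9.62 and 9.51 in control mice. The groups overlapped, and the difference was 0.16 (SE 0.0743, limma adjusted p = 0.536). Its isoform of brain and muscle, Slc25a12, and the second glutamate carrier Slc25a18 were flat at 8.50 and 6.19.

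**Figure D3:**
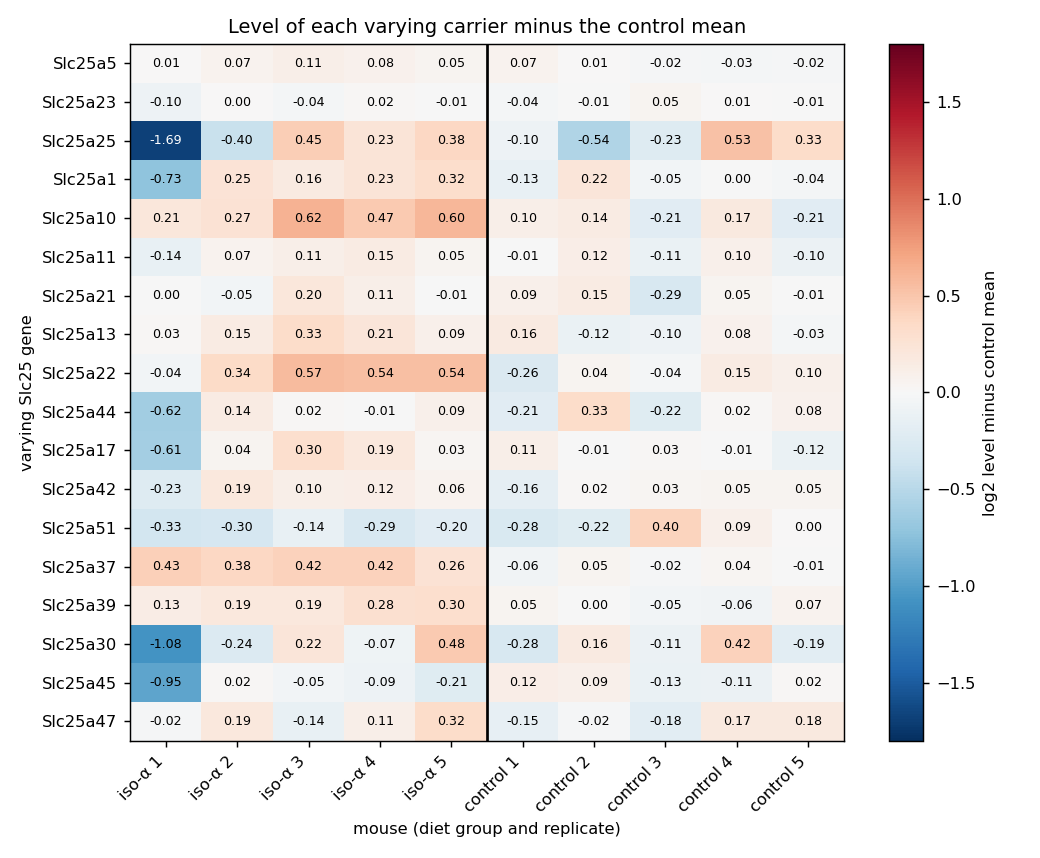
Log2 level of each of the 18 varying carriers (rows) in each mouse (columns, iso-α-acids diet group left of the line) minus the mean of the 5 control mice; red is above and blue below that mean. Replicate 1 of the iso-α-acids mice is the lowest of the 10 mice for 10 carriers, such as Slc25a25, Slc25a30, Slc25a45 and Slc25a1, while Slc25a37 is above the control mean in all 5 mice of that group.

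The carriers of adenine nucleotides supply the cytosol with ATP and set the nucleotide content of the matrix. Slc25a5, an exchanger of ADP for ATP found in many tissues, was at 11.82, 11.88, 11.92, 11.89 and 11.87 in iso-α-acids mice and at 11.88, 11.82, 11.79, 11.78 and 11.79 in control mice. Only 3 of the 5 control mice lay below every iso-α-acids mouse, and the difference was small (log2 difference 0.06, SE 0.0236, limma adjusted p = 0.405). Its isoforms of heart and muscle, Slc25a4, and of testis, Slc25a31, were flat at 6.65 and 5.38. The calcium-regulated ATP-Mg/phosphate carrier Slc25a23 was at 11.60, 11.70, 11.66, 11.72 and 11.69 in iso-α-acids mice and at 11.66, 11.69, 11.75, 11.71 and 11.69 in control mice (log2 difference -0.02, SE 0.0245, limma adjusted p = 0.841, and -0.00669 without replicate 1). The spread over the 10 mice was the smallest of the varying carriers. Slc25a25, a carrier of the same kind, had the largest spread, from 7.94 in replicate 1 to 10.08 in iso-α-acids mice and from 9.09 to 10.16 in control mice. Its difference was -0.21 (SE 0.434, limma adjusted p = 0.941) with all mice and 0.16 (SE 0.269) without replicate 1. Slc25a24 and Slc25a41 were flat, as was the phosphate carrier Slc25a3, which brings in the phosphate for ATP synthesis, at 11.21.

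Among the carriers of other amino acids, only Slc25a44, which takes branched-chain amino acids into mitochondria, varied. It was at 9.03, 9.80, 9.68, 9.64 and 9.75 in iso-α-acids mice and at 9.45, 9.99, 9.43, 9.67 and 9.73 in control mice. Replicate 1 lay below all other mice, and the other 4 iso-α-acids mice lay within the range of the controls (log2 difference -0.08, SE 0.169, limma adjusted p = 0.946, and 0.0605 without replicate 1). Slc25a38, which imports glycine for heme synthesis, Slc25a29, a carrier of basic amino acids, and the ornithine carrier Slc25a2 were flat, with levels of 6.14 to 8.45.

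Of 8 carriers of cofactors and pyrimidine nucleotides, 3 varied and none passed limma's test. Slc25a17, the peroxisomal carrier of coenzyme A, FAD and NAD, was at 8.83, 9.48, 9.74, 9.63 and 9.46 in iso-α-acids mice and at 9.55, 9.42, 9.46, 9.43 and 9.32 in control mice. Its difference was -0.01 (SE 0.159, limma adjusted p = 0.994) with all mice and 0.14 (SE 0.0688, limma adjusted p = 0.482) without replicate 1. Slc25a42, which brings coenzyme A into the matrix, was at 9.02 in replicate 1 and at 9.32 to 9.44 in the other 4 iso-α-acids mice, and at 9.09 to 9.31 in control mice. Its difference was 0.05 (limma adjusted p = 0.919) with all mice and 0.12 (SE 0.0507, limma adjusted p = 0.393) without replicate 1, when the groups did not overlap, as for 24.4% of varying probe sets in that direction. The NAD carrier Slc25a51 was at 9.15 to 9.34 in iso-α-acids mice and at 9.20 to 9.88 in control mice, with a difference of -0.25 (SE 0.124, limma adjusted p = 0.572) that came with a wide spread among the control mice. The flat genes of this group were Slc25a16, Slc25a26 (S-adenosylmethionine), Slc25a32 (folate and FAD), and Slc25a33 and Slc25a36 (pyrimidine nucleotides), at 5.96 to 9.43.

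In the group of carriers that resemble uncoupling proteins, Slc25a30 varied and Slc25a14 and Slc25a27 were flat. Slc25a30 was at 6.97, 7.80, 8.27, 7.97 and 8.52 in iso-α-acids mice and at 7.76, 8.21, 7.94, 8.46 and 7.86 in control mice. Replicate 1 was the lowest of all mice, and the groups overlapped (log2 difference -0.14, SE 0.288, limma adjusted p = 0.939, and 0.0957 without replicate 1). Of the 9 carriers with no substrate assigned here, Slc25a47, which is made mainly in the liver, was at 10.09, 10.31, 9.98, 10.22 and 10.44 in iso-α-acids mice and at 9.96, 10.10, 9.93, 10.28 and 10.29 in control mice (log2 difference 0.09, SE 0.109, limma adjusted p = 0.869). Slc25a45 was at 7.93 in replicate 1 and at 8.66 to 8.90 in the other 4 iso-α-acids mice, and at 8.75 to 8.99 in control mice. It had the lowest difference of the 18 varying carriers, -0.26 (SE 0.179, limma adjusted p = 0.727), which was -0.08 without replicate 1. The other 7 genes of this group, Slc25a34, Slc25a35, Slc25a43, Slc25a46, Slc25a48, Slc25a53 and Slc25a54, were flat at 6.24 to 9.43.

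Replicate 1 lay below the other 4 iso-α-acids mice for 15 of the 18 varying carriers (83.3%), where the share over all varying probe sets was 50.1%. The exceptions were Slc25a37, for which it was the highest, and Slc25a21 and Slc25a47, for which it lay within the range of the other 4. It was the lowest of all 10 mice for 10 of the 18 (55.6%, against 34.8%). The log2 gap between replicate 1 and the mean of replicates 2 to 5 reached -1.85 for Slc25a25, -1.18 for Slc25a30, -0.97 for Slc25a1 and -0.86 for Slc25a45. Without replicate 1, 15 of the 18 differences were positive instead of 11, while the share over all varying probe sets was 54.7% instead of 53.6%. The median of the 18 differences was then 0.12, against 0.02 over all varying probe sets. Leaving out a mouse below the mean of the rest of its group raises the difference by arithmetic. These shifts therefore follow from the low values of replicate 1 and are no separate result about the carriers. In the fit without replicate 1, limma called Slc25a22, Slc25a37 and Slc25a39 higher and none lower, against 1.57% and 0.662% of all probe sets. For varying probe sets alone these shares were 13% higher and 4.26% lower, against 16.7% of the varying carriers higher. With replicate 1 left out and only varying probe sets tested, an alternative chosen after seeing the data, Slc25a1, Slc25a5 and Slc25a10 were also called higher, which made 6, against 26.6% of probe sets called higher and 14.2% called lower.

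**Figure D4:**
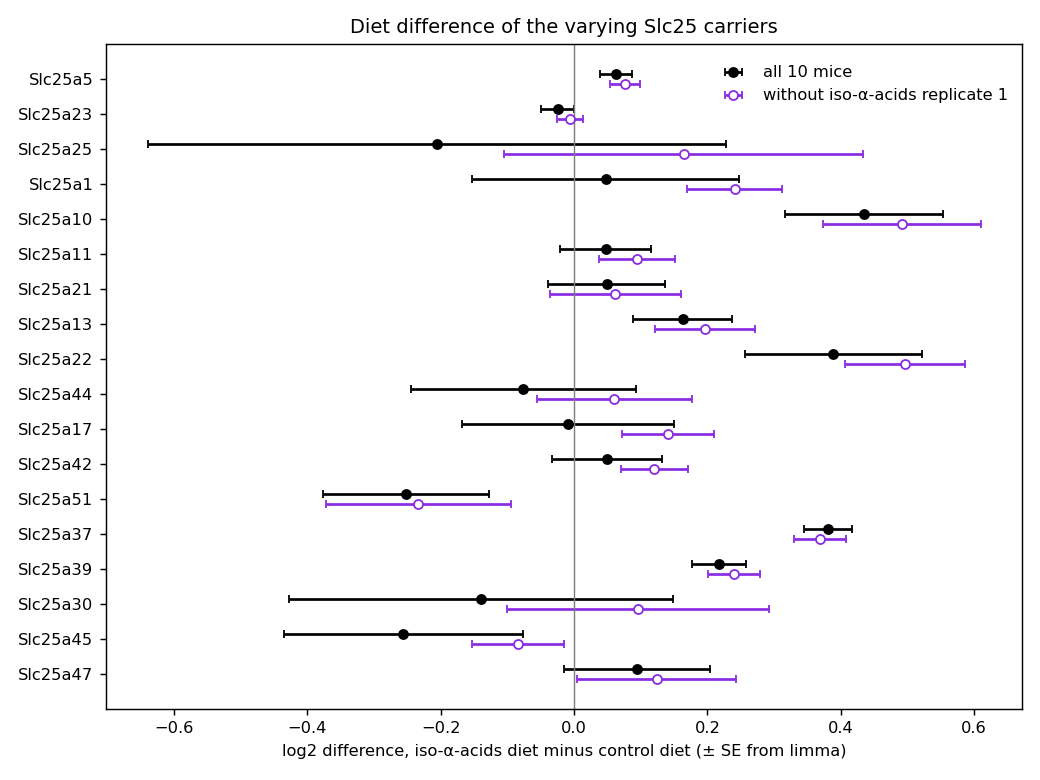
Log2 difference between the iso-α-acids mice and the control mice (horizontal axis, with the standard error from limma) for the 18 varying carriers, with all 10 mice (filled) and without replicate 1 of the iso-α-acids mice (open). The value of Slc25a37 hardly moves (0.38 and 0.37), whereas those of Slc25a25, Slc25a30, Slc25a44 and Slc25a17 are below 0 with all mice and above 0 without replicate 1.

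Rank products, the test that the methods name for these arrays, called 6 carriers higher (Slc25a1, Slc25a10, Slc25a13, Slc25a22, Slc25a37 and Slc25a39) and 2 lower (Slc25a45 and Slc25a51). It called 3.72% of all probe sets higher and 3.19% lower, and 33.5% and 28.4% of the varying ones, beside 33.3% and 11.1% of the varying carriers. Slc25a1 was among its calls although its mean difference was 0.05. Run on varying probe sets alone, where it called 3.81% higher and 3.08% lower, rank products called 0 carriers, while limma on the same probe sets called 3.

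Other genes of mitochondrial transport were set beside the carriers. Of 35 listed, 30 were measured, 9 varied, and none rose or fell by limma's test with all mice. Without replicate 1, Mtch2 (log2 difference 0.12, limma adjusted p = 0.0127) and Vdac1, a pore of the outer membrane (log2 difference 0.10, limma adjusted p = 0.0435), were called higher and none lower. In that fit 13% of varying probe sets were called higher and 4.26% lower (1.57% and 0.662% of all probe sets). With all mice the 9 varying genes of the list had a median log2 difference of 0.09. Of these 9 differences, 8 were positive, against 53.6% over all varying probe sets. Mpc1, a subunit of the pyruvate carrier, was at 11.28, 10.98, 11.04, 11.03 and 11.02 in iso-α-acids mice and at 10.97, 10.76, 10.78, 10.81 and 10.61 in control mice. The groups did not overlap, as for 12.1% of varying probe sets in that direction, and replicate 1 was the highest of all mice (log2 difference 0.29, SE 0.0765, limma adjusted p = 0.205). Micu2, a regulator of the calcium uniporter, had a difference of 0.21 (SE 0.0964, limma adjusted p = 0.532), and Smdt1, a subunit of the uniporter, one of 0.13 (limma adjusted p = 0.552). Without replicate 1 the differences were 0.29 for Micu2 (limma adjusted p = 0.0680) and 0.19 for Smdt1 (limma adjusted p = 0.0638). Neither gene's groups then overlapped, as for 24.4% of varying probe sets in that direction. Abcb10, a transporter of the inner membrane needed for heme synthesis, was at 7.52 to 7.986 in iso-α-acids mice and at 7.989 to 8.11 in control mice, lower without overlap as were 7.3% of varying probe sets. Its difference was -0.16 (limma adjusted p = 0.632) with all mice and -0.0741 (limma adjusted p = 0.203) without replicate 1. All 11 genes of the machinery that imports carriers, such as Tomm70a and Timm22, were flat. Of the family members under other symbols, Mtch2 varied, with a difference of 0.07 (limma adjusted p = 0.794) with all mice, and Ucp1, Ucp3 and Mtch1 were flat.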

How the data were processed

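RNA of 10 livers was hybridized to Clariom S Mouse Arrays, 5 of iso-α-acids mice and 5 of control mice. The authors quantile normalized the CEL files and summarized the probes with qFARMS. Versions, settings and log base are not given in the sources used here. The deposited log2 values (range 4.94 to 13.37, the base read from this range) were used as they were. Shrinkage of probe sets by qFARMS leaves 89.0% of them flat. Gene symbols came from the platform annotation. All 44 Entrez identifiers of the carriers were found in a RefSeq table of GRCm38.p6 and 0 symbols changed.

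The groups were compared with limma 3.58.1 in R 4.3.3 (lmFit, then eBayes with no trend and 0.348 prior degrees of freedom) on all 22206 probe sets, with Benjamini-Hochberg adjustment. Rank products took the median over all 120 pairings of the arrays, with p from the gamma distribution. Both were run on simulated data with known changes, and a condition to pass was set for limma alone. Scan dates are not given in the sources used here, so no batch was tested. The carriers, substrate groups, marker lists and tests were chosen with earlier results of these data known. Levels in every mouse were to be given for carriers that limma called or whose groups did not overlap and for the varying carrier with the highest level in each substrate group; those of other carriers were added after their values were seen. Of the other transport genes, the 4 varying ones with the largest differences were named, and others named were chosen after their values were seen. Alternatives were leaving out each mouse, a replicate block, median centring, repeated quantile normalization, filters on dim (25%) and flat probe sets, array weights, eBayes with a trend or robust, rank products and the methods' t-test.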

Additional observations from a re-analysis of the deposited data

Results flagged for a closer look

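In 4 of 36 sets of 5 mice (18 varying carriers in each group), the highest or lowest mouse lay far from the rest by Dixon's criterion. For a single set, chance gives about 1 in 20. The 36 sets share the same 10 arrays and are not independent, so the count cannot be read against that share. Of the 4, 3 were low values of replicate 1 of the iso-α-acids mice. Slc25a1 was at 10.46 in it, and the nearest mouse of its group at 11.35. Slc25a44 was at 9.03 in it, with the nearest at 9.64, and Slc25a45 at 7.93, with the nearest at 8.66. The other was Slc25a42 in replicate 1 of the control mice, at 9.09, with the nearest control mouse at 9.27.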

How the results depend on the processing

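The call of Slc25a37 was kept in 20 of 22 alternatives. It was lost with the replicate number as a block (adjusted p = 0.0963 from limma, 0 carriers called, 0.0946% of probe sets called higher and 0.0045% lower), and with rank products on varying probe sets alone (FDR 0.282, 0 carriers called). The labels do not say whether the numbers pair the mice. The deviations of same-numbered mice from their group means correlated at -0.21 to 0.23, and so few mice cannot decide it. The count of carriers called higher was 1 to 3 when 1 mouse was left out, the 3 without replicate 1 of the iso-α-acids mice. It was 2 with array weights, 3 on varying probe sets alone, 6 on varying probe sets without that mouse, and 6 with rank products, which also called 2 lower. Directions changed for 6 of the 18 carriers, none of them called by limma over all probe sets. When 1 mouse was left out, the log2 difference ran from -0.0214 to 0.24 for Slc25a1, -0.0864 to 0.14 for Slc25a17, -0.0226 to 0.0877 for Slc25a21, -0.37 to 0.16 for Slc25a25, -0.29 to 0.10 for Slc25a30 and -0.13 to 0.0605 for Slc25a44. On varying probe sets without replicate 1, Slc25a17, Slc25a25, Slc25a30 and Slc25a44 were at 0.14, 0.16, 0.10 and 0.0605, and with array weights Slc25a17 was at 0.0666. The causes were not tested. Each carrier had a single probe set, so no other probe set of a gene could be tried. For the 26 flat carriers no alternative can show a change.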
